A study of Mus musculus with 12 samples.

Results

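The baseline occupancy of mRNAs by ribosomes was described here for wild-type CD4+ T cells, by setting 2 libraries of ribosome footprints against 4 libraries of total RNA. Ribosome footprints, or ribosome-protected fragments (RPF), are the short pieces of mRNA that a ribosome shields when a nuclease digests the rest. The genes were the protein-coding genes of the nuclear genome, 21008 of the 45669 rows of the count table. Of these, 11723 passed a filter on low counts and were tested, 9285 did not pass it, and 5699 of the latter had no count in any of the 6 libraries.

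The study compared WT/WT mice with mice homozygous for Anaef, an allele of Rasgrp1, all 12 weeks old and on the C57BL6 background, and 6 of its 12 libraries came from WT cells. CD4+ T cells of lymph nodes were purified and left unstimulated. The total RNA libraries (replicates 1 to 4) came from 20000 cells each with a kit that captures polyadenylated RNA on oligo-dT beads, without drug treatment. The footprint libraries (1B and 2B) came from the cells left over from those samples, 2 samples to a pool and far more cells than for total RNA, which were held in 100 µg/ml cycloheximide, an inhibitor of translation elongation, for 1 minute, digested with micrococcal nuclease and spun through a sucrose cushion. Which samples went into which pool is not named, so the shared source could not be modelled and a p-value here reflects only how these libraries vary, and the comparison of the assays carries every difference in how the libraries were made. Because cells were measured in bulk, fewer cells of a type and less RNA per cell cannot be told apart.

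An mRNA is read by a series of ribosomes, and the number of footprints on it depends on how much of the mRNA there is, on how often ribosomes start and on how long they stay. The ratio of footprints to mRNA is therefore used as a measure of ribosome occupancy, often called translational efficiency. Resting T cells are small, quiescent cells that hold many mRNAs for growth and activation in reserve. Known brakes on single mRNAs include short upstream reading frames, which take up ribosomes before the coding sequence, and hairpins near the cap.

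The WT total RNA libraries held between 15326842 and 40046317 counts, and the footprint pools 7009342 (1B) and 4044330 (2B). Protein-coding nuclear genes took 38.3% to 53.6% of the counts in total RNA and 87.1% and 91.5% in footprints, while genes of the mitochondrial genome took 16.4% to 27.8% and 0.53% and 0.73%. Rows annotated as pseudogenes took 21.1% to 28.2% in total RNA and 1.13% and 1.23% in footprints. The total RNA library of replicate 3 was the shallowest and had the lowest share of protein-coding genes. Across genes, the 2 footprint pools ranked the genes alike (Spearman's rho = 0.987), as did pairs of total RNA libraries (0.942 to 0.978), whereas pairs of a total RNA and a footprint library reached 0.650 to 0.670. Genes are not independent replicates, and these values describe the libraries only. Unless another scale is named, levels below are counts-per-million values (CPM) of the TMM-scaled library. A log2 ratio is the log2 of footprints over total RNA from edgeR with its standard error (SE) over the 4 and 2 libraries.

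Footprint levels departed from mRNA levels at most expressed genes. By edgeR's quasi-likelihood test with an adjusted p below 0.05, 3243 genes (27.7% of those tested) were higher in footprints and 4497 (38.4%) were lower, and 3983 did not pass. With a log2 ratio of at least 1 in size as a further condition, 2651 (22.6%) were higher and 4001 (34.1%) lower. The values of the footprint pools lay above those of all 4 total RNA libraries at 3854 genes and below all of them at 4968. Groups without overlap were thus common among all tested genes, and single cases below are to be read beside these counts. The median log2 ratio was -0.30, with quartiles of -2.14 and 1.01, and 90% of the genes lay between -7.97 and 2.85, so the tail toward few footprints was the longer one. Ratios are relative: TMM scaling sets their zero, and with scaling to the library total alone the median moved to -0.59 and the calls to 2597 higher and 5074 lower. Of the calls 41.9% were higher. With a trend on coding length or coding GC content taken out, this share was 52.5%, with 4164 higher and 3767 lower, or 4154 and 3754. Taking out a trend also reset the zero, with the median at 0.12 for length and 0.11 for GC content. Spearman's rho of the ratio across all tested genes was -0.016 with coding length and 0.042 with coding GC content.

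**Figure D1:**
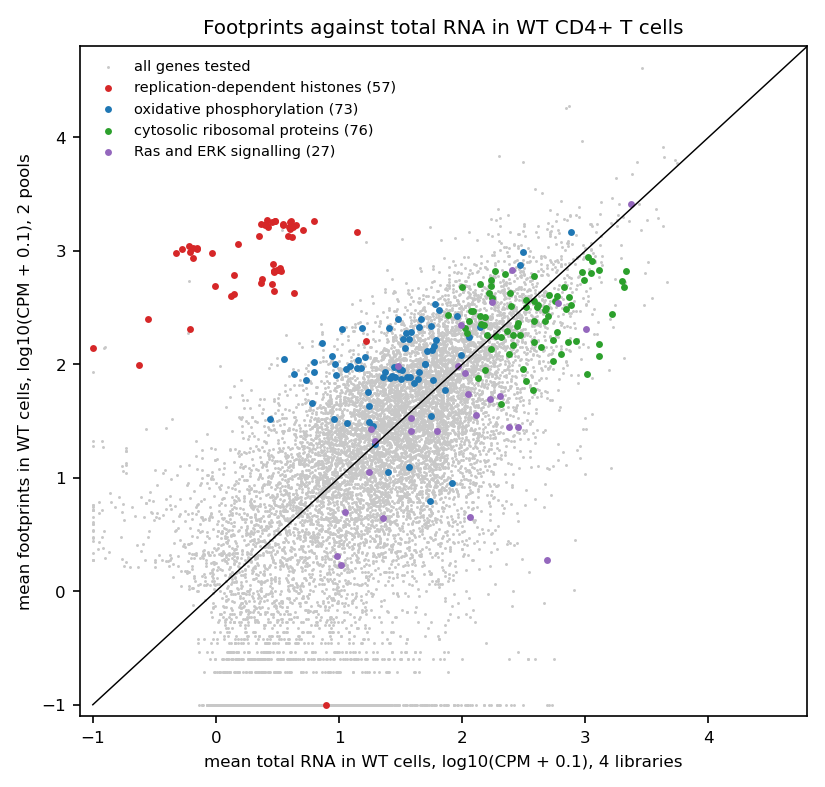
Mean footprint level against mean total RNA level of the 11723 tested genes in WT cells, both as log10 of CPM + 0.1, with the line of equal levels. Replication-dependent histones lie far above the line, most oxidative phosphorylation subunits lie above it, cytosolic ribosomal proteins lie on both sides and most Ras and ERK pathway genes lie below it.

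Reads that fit more than 1 gene limit single values. Of the tested genes, 7008 had at most 10% of their exon bases inside other genes and under 5% of their coding stretches of 28 bases in transcripts of other genes, and these are called distinct genes below. Among distinct genes 1871 (26.7%) were higher and 2641 (37.7%) lower, with a median of -0.29, close to the shares of all tested genes. The footprint counts had also been masked before deposit, and no source used here says what was masked. A low footprint value of a single gene, the more so near 0, therefore cannot be told apart from masked positions.

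The most extreme genes in the direction of footprints were the replication-dependent histones, whose proteins package newly made DNA and whose mRNAs are known to end in a stem-loop in place of a poly(A) tail. In this list 56 of the 57 genes tested were higher (98.2%) and 1 lower (1.75%), with a median log2 ratio of 8.77. Hist1h3b, a histone H3 gene, had 0.415, 0.95, 0.163 and 0.473 CPM in total RNA and 1084 and 1107 CPM in footprints (log2 ratio 10.84 ± 0.31 (SE), adjusted p = 3.5e-08). Hist1h3c had 0.311, 0.777, 0.163 and 0.473 CPM in total RNA and 1056 and 1032 CPM in footprints, and Hist1h2bg, a histone H2B gene, 0.986, 2.12, 1.30 and 5.60 CPM in total RNA and 1904 and 1811 CPM in footprints. The groups did not overlap at any of these 3 genes, and total RNA held almost none of them. The replication-dependent histones together took 0.0141% to 0.0222% of the protein-coding counts in total RNA and 5.14% and 5.31% in footprints. The stem-loop was looked for in the GENCODE M21 transcripts (GRCm38), on the sense strand, as GGCTCTTTTNAGAGCC, the stretch of 16 letters with complementary ends that occurs in more of these histone genes than any other such stretch, because it marks the mRNAs that end without the tail that oligo-dT beads capture; the part of this capture in the ratios was not tested. The motif was found in 27 of the 57 histone genes, all of them among the 41 with an annotated 3′ UTR of at least 50 bases, against 29 of all 11723 tested genes (0.247%). Because the motif was picked from these same histone genes, its frequency among them is a description only. The sites of 4 of them are shown with the motif in capitals.
Hist1h3b: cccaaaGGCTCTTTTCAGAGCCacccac
Hist1h3c: aaaaaaGGCTCTTTTAAGAGCCacctaa
Hist1h2bg: cccaaaGGCTCTTTTCAGAGCCacccat
Hist3h2a: accaaaGGCTCTTTTCAGAGCCacccac
They lie at chr13:23752814-23752841, plus strand (Hist1h3b), chr13:23745041-23745068, minus strand (Hist1h3c), chr13:23571837-23571864, plus strand (Hist1h2bg) and chr11:58955166-58955193, plus strand (Hist3h2a), each in the 3′ UTR of the named gene.

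The histone genes with the motif in their annotated transcript had a median log2 ratio of 8.77 and those without it in the annotation 8.78. The latter include genes with a short or no annotated 3′ UTR, so the 2 groups do not separate mRNAs with and without a stem-loop. The exception in direction was Hist3h2a, an H2A gene that holds the motif and had 5.81, 17.5, 0.977 and 6.54 CPM in total RNA and 0 and 0 CPM in footprints, at least 28.2-fold lower when 3 counts in the pools together are taken as the floor and not called without pool 1B; all of its exon bases lie inside the gene Trim17. Hist4h4, an H4 gene, was the least extreme of those higher, with 16.4 ± 2.79 CPM in total RNA and 161 ± 55.5 CPM in footprints (SD, n = 4 and 2). Histones made outside DNA replication have poly(A) tails. Of 8 tested, 6 were higher (75%) and 1 lower (12.5%), with a median of 1.79, beside 27.7% and 38.4% of all tested genes. Among them H3f3b, the gene of replacement histone H3.3, had 688 against 58 CPM (log2 ratio 3.57 ± 0.19), and H2afz, the gene of variant H2A.Z, was lower, with 62.8 against 216 CPM (-1.78 ± 0.21). None of the 8 held the motif. Only 2 of the 8 are distinct genes, of which 1 was higher and 0 lower, with a median of 0.32. Most histone genes share long coding stretches with one another, so the values of single histone genes are uncertain.

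Actin and its partners, which shape the cortex of a migrating lymphocyte, carried much of the footprint signal. In the list of actins and actin regulators 21 of the 32 genes tested were higher (65.6%) and 7 lower (21.9%), with a median log2 ratio of 1.03, beside 27.7% and 38.4% of all tested genes. Actb, the cytoplasmic beta-actin, had 2884, 2625, 3353 and 2768 CPM in total RNA and 35942 and 44934 CPM in footprints (log2 ratio 3.80 ± 0.14 (SE), adjusted p = 7.5e-08). Tmsb4x, the gene of thymosin beta-4, which binds monomeric actin, had 501, 623, 1116 and 533 CPM in total RNA and 20462 and 15440.2 CPM in footprints. Coro1a, the gene of the coronin of leukocytes, had 284, 303, 287 and 367 CPM in total RNA and 5838 and 6300.4 CPM in footprints. At all 3 genes both pools lay far above the 4 total RNA libraries. The myosin heavy chain Myh9 (log2 ratio 3.31 ± 0.14), the integrin linker talin, Tln1 (3.16 ± 0.14), and the Arp2/3 subunit Arpc3 (4.28 ± 0.17) were also higher. Against these, another Arp2/3 subunit gene, Actr3, was lower, with 17.6 against 852 CPM (-5.59 ± 0.21), as was profilin, Pfn1, with 749 against 1377 CPM (-0.88 ± 0.22; -0.63, not called, without pool 1B). Acta2, the smooth muscle actin, had 1529 against 3.35 CPM, and it encodes a protein nearly identical to that of Actb; the part of footprints that fit several actin genes was not tested.

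The ubiquitin gene Ubb was high in footprints, and most of the enzymes that pass ubiquitin on were not. Ubb, which encodes head-to-tail repeats of ubiquitin, had 173, 205, 222 and 199 CPM in total RNA and 6631 and 7069 CPM in footprints (log2 ratio 5.10 ± 0.14 (SE), adjusted p = 3.5e-08), 34.3-fold higher on average. Its groups were far apart, and 86.8% of its coding stretches recur in other genes. In the list of ubiquitin genes and conjugating (E2) enzymes, however, 6 of the 18 genes tested were higher (33.3%) and 9 lower (50%), with a median log2 ratio of -1.03, beside 27.7% and 38.4% of all tested genes. Total RNA was also multiplied by the share of each transcript that is coding (the coding share), since footprints come mainly from coding sequence. Here and below, that share was taken relative to its median over the tested genes, which sets the zero. The median log2 ratio of all genes was then -0.18. With the coding share, 9 genes of the list were higher and 7 lower, with a median of 0.53. Ube2d3 had 911, 930.4, 1206 and 912 CPM in total RNA and 12.1 and 9.48 CPM in footprints (log2 ratio -6.50 ± 0.25 (SE), adjusted p = 9.3e-08), and Ube2k had no footprint count against 166 CPM in total RNA, at least 482-fold lower. Ube2k is a distinct gene by the criteria above, whereas 76% of the coding stretches of Ube2d3 recur in other genes.

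**Figure D2:**
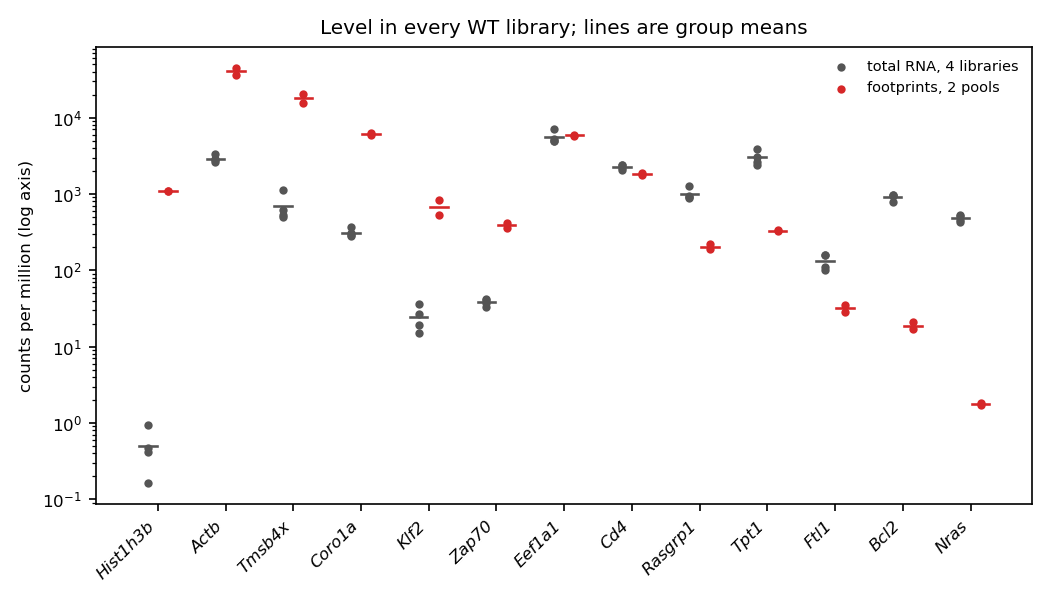
Level of 13 genes in each of the 4 WT total RNA libraries (grey) and the 2 WT footprint pools (red), in CPM on a log axis, with lines at the group means. The 2 pools lie close together at each gene, and the genes run from Hist1h3b, with 1084 and 1107 CPM in footprints and under 1 CPM in total RNA, to Nras, with 1.70 and 1.83 CPM in footprints.

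Protein complexes of basic metabolism lay above the median of all genes almost as whole lists. Of the nuclear subunits of oxidative phosphorylation, the chain of complexes that makes ATP in mitochondria, 62 of the 73 genes tested were higher (84.9%) and 3 lower (4.11%), with a median log2 ratio of 1.63. Proteasome subunits, which form the protease that degrades ubiquitinated proteins, followed: 29 of the 37 genes tested were higher (78.4%) and 3 lower (8.11%), with a median log2 ratio of 1.85. For glycolytic enzymes and glucose transporters 14 of the 19 genes tested were higher (73.7%) and 3 lower (15.8%), with a median log2 ratio of 1.73, and for chaperones with the chaperonin and prefoldin 24 of the 31 genes tested were higher (77.4%) and 4 lower (12.9%), with a median log2 ratio of 1.52. These shares of higher genes, from 73.7% to 84.9%, stand beside 27.7% of all tested genes. The lists were written with earlier results of these data known, so their counts are a description.

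Within these lists the members were spread over a wide range. Atp5e, the epsilon subunit of ATP synthase, had 10.6, 12.3, 27.4 and 10.7 CPM in total RNA and 221 and 198 CPM in footprints, and the complex I subunit gene Ndufa5 had 82.2 against 4.20 CPM (log2 ratio 4.35 ± 0.37). Ndufa10, of the same complex, was lower in footprints (8.90 against 82.4 CPM, -3.22 ± 0.35). The proteasome ATPase Psmc4 had 269 against 20.1 CPM (3.74 ± 0.22), and the lid subunit gene Psmd11 was lower, with 2.60 against 92.4 CPM (-5.16 ± 0.27). Pkm, pyruvate kinase, had 176, 179.6, 191 and 199 CPM in total RNA and 1818 and 1898 CPM in footprints (log2 ratio 3.32 ± 0.13 (SE), adjusted p = 9.3e-08), and hexokinase 1, Hk1, had 358 against 39.5 CPM (3.17 ± 0.39). The glucose transporter Slc2a3, in contrast, was lower, with 2.62 against 52.8 CPM (-4.27 ± 0.35). In the chaperonin, which folds actin and tubulin, Cct3 (3.68 ± 0.19) and Cct8 (-2.73 ± 0.30) were called in opposite directions. Hsp90aa1 (3.57 ± 0.18) and the abundant Hspa8 (1.20 ± 0.14), both general chaperones, were higher.

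**Figure D3:**
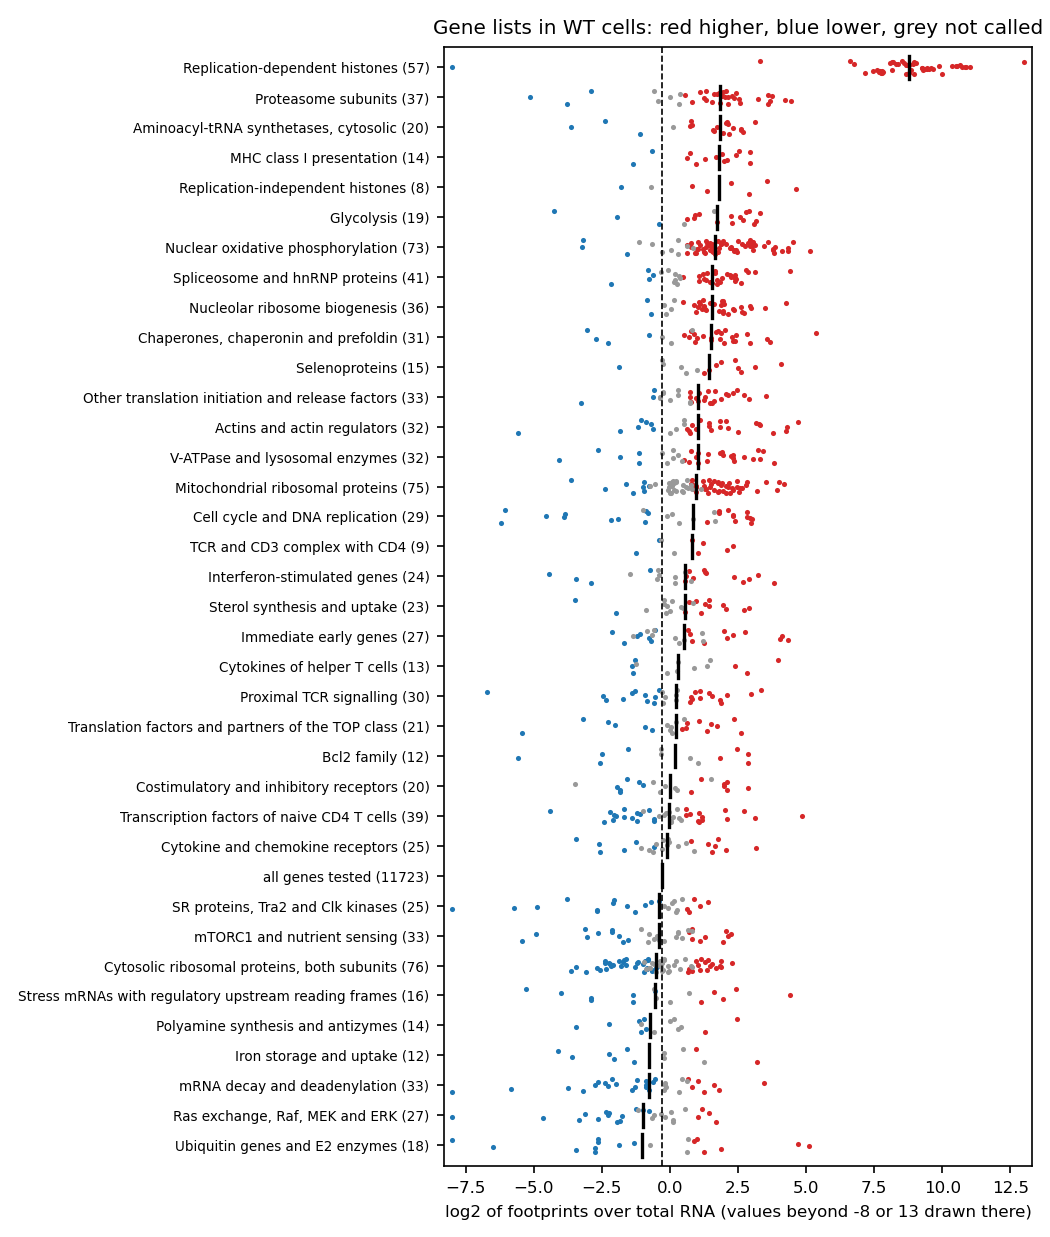
Log2 ratio of footprints over total RNA of every tested member of each list with at least 8 tested genes, ordered by the list's median (black bar), with the median of all genes dashed. Members higher in footprints are red, lower ones blue and those not called grey; the medians run from -1.03 for ubiquitin genes and E2 enzymes to 8.77 for replication-dependent histones.

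The machinery that makes proteins divided by kind. For aminoacyl-tRNA synthetases, which charge tRNAs, 16 of the 20 genes tested were higher (80%) and 3 lower (15%), with a median log2 ratio of 1.83, and for initiation and release factors outside the class described next, 21 of the 33 genes tested were higher (63.6%) and 3 lower (9.09%), with a median log2 ratio of 1.03. For mitochondrial ribosomal proteins 43 of the 75 genes tested were higher (57.3%) and 8 lower (10.7%), with a median log2 ratio of 0.97, and for nucleolar factors of ribosome assembly 30 of the 36 genes tested were higher (83.3%) and 2 lower (5.56%), with a median log2 ratio of 1.53. Vars (3.12 ± 0.14), Dars (2.68 ± 0.15), the eIF3 subunit Eif3b (3.54 ± 0.27), the nucleolar helicase Ddx21 (2.73 ± 0.14) and Mrps16 of the mitochondrial ribosome (4.19 ± 0.39) were among those higher. Farsb (-3.63 ± 0.31) and Mrps25 (-3.64 ± 0.19) were lower. All 4 lists had more higher and fewer lower genes than the 27.7% and 38.4% of all tested genes. The helicases of the initiation complex parted: Eif4a1 had 242, 268, 363 and 269 CPM in total RNA and 1444 and 1395 CPM in footprints and Eif4a2 736, 785, 736 and 783 CPM in total RNA and 79 and 80.4 CPM in footprints. Footprints thus favoured Eif4a1 and total RNA Eif4a2, and the groups did not overlap at either gene; both share coding stretches with other genes.

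Cytosolic ribosomal proteins did not follow the other lists. Of 76 tested, 17 were higher (22.4%) and 33 lower (43.4%), shares close to those of all genes, with a median log2 ratio of -0.52 against -0.30. Their summed share of the protein-coding counts was 4.13% ± 1.10 (SD, n = 4) in total RNA and 2.08% ± 0.0630 (SD, n = 2) in footprints. That difference of -2.05 percentage points gave p = 0.133 in the exact permutation test over 15 assignments (two-sided, as 2 times the one-sided value), the smallest that this doubling allows. Rpl12 (-3.64 ± 0.34), Rpl31 (-3.45 ± 0.35) and Rps6 (-1.69 ± 0.24) were lower and Rps13 (2.26 ± 0.21) was higher. None of the 76 is a distinct gene, since pseudogenes and copies repeat their coding sequence, and the ratios of single members are uncertain for that reason. The list's median and summed share are uncertain too. Pseudogene rows took 21.1% to 28.2% of all counts in total RNA and 1.13% and 1.23% in footprints. The part of this difference in the values of genes with pseudogenes was not tested.

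These genes and a group of translation factors belong to the TOP class, named for the terminal oligopyrimidine tract that starts their mRNAs and through which mTOR is known to control their translation. In the translation factors and partners of the class 9 of the 21 genes tested were higher (42.9%) and 6 lower (28.6%), with a median log2 ratio of 0.21, beside 27.7% and 38.4% of all tested genes. Tpt1, translationally controlled tumour protein, had 2407, 3071, 3926 and 2624 CPM in total RNA and 326 and 336 CPM in footprints (log2 ratio -3.18 ± 0.23 (SE), adjusted p = 2.8e-06). Pabpc1, the cytoplasmic poly(A)-binding protein, had 3519.9, 3191, 2205 and 3204 CPM in total RNA and 656 and 607 CPM in footprints, and the nucleolar chaperone gene Npm1 had 793 against 3204 CPM (-2.01 ± 0.26). Eef1b2, a subunit of the exchange factor of elongation, was the lowest, with 14.2 against 598 CPM (-5.42 ± 0.32). Eef1a1, the elongation factor that brings aminoacyl-tRNA, had 4920.4, 5227, 7066 and 4947 CPM in total RNA and 5790.1 and 5977 CPM in footprints (log2 ratio 0.09 ± 0.16 (SE), adjusted p = 0.66), and its groups overlapped; with scaling to the library total its log2 ratio was -0.20, also not called. With the coding share Eef1a1 was at -0.48 and called lower, and 2 other fits called it higher. So in the main fit the footprints of Tpt1, Pabpc1, Npm1 and Eef1b2 lay well under their mRNA and those of Eef1a1 at its level. None of these 5 genes is a distinct gene. Of the 5 distinct genes in the list 3 were higher and 0 lower, with a median of 1.51, and with total RNA multiplied by the coding share 7 of the 21 were higher and 8 lower, with a median of -0.18. Around RefSeq start sites (GRCm38.p6), a C followed by 4 letters that were each C or T began within 5 bases of the start in 27 of the 56 ribosomal protein genes with an entry (48.2%), in 7 of 15 of the other group (46.7%) and in 2195 of 9232 tested genes (23.8%). For Tpt1, Pabpc1, Npm1 and Eef1b2 no such run was found or no start site was at hand. The starts of 3 genes with such a run are shown, with the run in capitals and the start site as the 11th base. The run begins before that base in Eef1a1 and Rps6 and after it in Rpl12. None of the 3 thus shows a tract that begins at the annotated start itself.
Eef1a1: ctccgCCCTCTTCCCgagggtgggg
Rps6: gaagtcgggCCTCTTTTTCgtgacg
Rpl12: agcaggatccgtCTTTTCggctttc
They lie at chr9:78481710-78481734, minus strand (Eef1a1), chr4:86857353-86857377, minus strand (Rps6) and chr2:32961702-32961726, plus strand (Rpl12). Of these, Eef1a1 was not called and the other 2 were lower.

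Genes of RNA processing split between core and regulator. For spliceosome and hnRNP proteins 29 of the 41 genes tested were higher (70.7%) and 4 lower (9.76%), with a median log2 ratio of 1.54, with Snrpd3, an Sm core protein, at 4.40 ± 0.23. For SR proteins, Tra2 proteins and Clk kinases, which steer splice site choice and many of whose transcripts are known to be kept in the nucleus or to hold poison exons, 5 of the 25 genes tested were higher (20%) and 13 lower (52%), with a median log2 ratio of -0.41. The kinase gene Clk4 had 42.3 against 271 CPM (-2.67 ± 0.18) and Luc7l3 had 12.2 against 358 CPM (-4.88 ± 0.25), while Son, of nuclear speckles, was higher (log2 ratio 0.64 ± 0.12; -0.10, not called, with total RNA multiplied by the coding share). For mRNA decay and deadenylation factors 7 of the 33 genes tested were higher (21.2%) and 19 lower (57.6%), with a median log2 ratio of -0.77. The shares of all tested genes were 27.7% higher and 38.4% lower. The deadenylase gene Cnot6l had 303, 317, 339 and 331 CPM in total RNA and 4.91 and 6.42 CPM in footprints, and Smg1, the kinase of nonsense-mediated decay, had 1592, 1538, 1562 and 1656 CPM in total RNA and 291 and 212 CPM in footprints. The helicase that this kinase acts on, Upf1, was higher, with 44.1, 41.1, 23.1 and 40.3 CPM in total RNA and 391 and 435 CPM in footprints. The 2 partners in decay thus lay on opposite sides, and neither pair of groups overlapped.

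The T cell receptor (TCR) and its CD3 chains carry the antigen signal. In the list of CD3 chains, CD4 and their partners 5 of the 9 genes tested were higher (55.6%) and 2 lower (22.2%), with a median log2 ratio of 0.81, beside 27.7% and 38.4% of all tested genes. Cd3d (2.08 ± 0.20) and Cd3g (2.31 ± 0.15) were higher and Cd3e (-0.41 ± 0.14) and the costimulatory receptor gene Cd28 (-1.24 ± 0.15) lower. After the total RNA was multiplied by the coding share of the transcript, Cd28 was higher (0.55) and Cd3e was at 0.016; Cd3e was also not called without total RNA replicate 1 or 2 or pool 1B (-0.37, -0.38 and -0.39). Cd4 itself had 2419, 2215, 2424 and 2060.2 CPM in total RNA and 1763 and 1880.5 CPM in footprints; both pools lay below all total RNA libraries, and the test missed the threshold (log2 ratio -0.32 ± 0.13 (SE), adjusted p = 0.053). The TCR constant regions are not protein-coding by the annotation's label and were not tested. Trac levels are given on the scale of all counts of a library. They were 310.4 to 362 CPM in total RNA and 1844 and 2292 CPM in footprints, so the pools lay well above on that scale. Protein-coding nuclear genes took 38.3% to 53.6% of all counts in total RNA and 87.1% and 91.5% in footprints. The size of the Trac gap is therefore not comparable with the gaps of the TMM-scaled genes above.

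Among genes of proximal TCR signalling 13 of the 30 genes tested were higher (43.3%) and 11 lower (36.7%), with a median log2 ratio of 0.22; of all tested genes 27.7% were higher and 38.4% lower. The kinase Zap70, which binds phosphorylated CD3 chains, had 41.6, 33.1, 37.8 and 41 CPM in total RNA and 361 and 415 CPM in footprints (log2 ratio 3.34 ± 0.16 (SE), adjusted p = 3.4e-07), so its footprints lay about as far above its mRNA as those of Pkm. The kinase Lck (0.78 ± 0.14) was higher too. The adaptor genes Lat (-0.86 ± 0.29) and Sh2d2a (-2.48 ± 0.17), which couple these kinases to their targets, were lower; Lat was not called without either pool (-0.83 and -0.98) or with the coding length (-0.33) or GC trend (-0.55) removed. Kinases higher and adaptors lower is a description of the 4 genes named, of which 2 were chosen after their values were seen.

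The Ras pathway stood under the median of all genes. Ras is switched on by exchange factors, among them Rasgrp1, which diacylglycerol recruits after TCR engagement, and passes the signal to Raf, MEK and ERK. In this list 4 of the 27 genes tested were higher (14.8%) and 14 lower (51.9%), with a median log2 ratio of -1.0, so 51.9% were lower beside 38.4% of all tested genes. Rasgrp1, the gene mutated in the Anaef mice, had 916, 950.4, 1255 and 891 CPM in total RNA and 192 and 218 CPM in footprints (log2 ratio -2.29 ± 0.20 (SE), adjusted p = 7.6e-06). Nras had 461, 528, 429 and 518 CPM in total RNA and 1.70 and 1.83 CPM in footprints (log2 ratio -8.10 ± 0.26 (SE), adjusted p = 5.1e-08), from 15 footprint counts in all. Dgkz, the kinase that removes diacylglycerol and so opposes Rasgrp1, was lower as well (28.2 against 285 CPM, -3.34 ± 0.17). At each of these genes the pools lay far below the 4 total RNA libraries, and all 3 are distinct genes. The kinase gene Map2k1 (MEK1), further down, was higher with 1.67 ± 0.25, as was the Ras GTPase-activating gene Rasa3 (1.43 ± 0.17).

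Transcription factors of naive CD4 T cells spanned the range. In their list 13 of the 39 genes tested were higher (33.3%) and 15 lower (38.5%), with a median log2 ratio of -0.02, shares near the 27.7% and 38.4% of all tested genes. Klf2, which keeps naive T cells quiescent and recirculating, had 15.2, 26.4, 36 and 19.5 CPM in total RNA and 528 and 839 CPM in footprints (log2 ratio 4.83 ± 0.32 (SE), adjusted p = 1.8e-06). Ets1 (1.17 ± 0.12) and Lef1 (0.57 ± 0.16) were higher by less; Lef1 was not called with library totals (0.28) or without pool 2B (0.50). Klf3 (-2.04 ± 0.16), Tcf12 (-4.40 ± 0.24) and 2 factors outside the list, Nfat5 with 5.40 against 462 CPM (-6.42 ± 0.22) and the NF-kappaB subunit gene Nfkb1 with 4.07 against 284 CPM (-6.20 ± 0.31), were lower. Of immediate early genes, whose mRNAs appear within minutes of stimulation, 11 of the 27 genes tested were higher (40.7%) and 7 lower (25.9%), with a median log2 ratio of 0.51, beside the same shares of all genes. Junb had 7.11, 8.20, 9.77 and 13 CPM in total RNA and 136 and 195 CPM in footprints and Ier2 146 against 8.96 CPM (4.05 ± 0.35), while Egr1 was lower, with 118 against 192 CPM (-0.70 ± 0.17); Egr1 was not called without pool 1B (-0.54), with the coding share (-0.15) or with the length (-0.19) or GC trend (-0.37) removed. The pools were handled in larger numbers of cells than the total RNA samples, and the part of handling in the levels of these genes was not tested.

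Receptors and survival genes also lay on both sides. The lymphotoxin gene Ltb (3.96 ± 0.28), the chemokine receptors Cxcr4 (3.15 ± 0.25) and Ccr7 (1.54 ± 0.16) were higher, and Il6st, the signalling chain shared by several cytokine receptors, was lower with 80.1 against 874 CPM (-3.45 ± 0.25). Il7r, the receptor of a survival cytokine, had 838, 900.1, 842 and 741 CPM in total RNA and 840.2 and 681 CPM in footprints (log2 ratio -0.13 ± 0.15 (SE), adjusted p = 0.48), and its groups overlapped. Bcl2, a survival factor of naive T cells, had 963, 963, 786 and 929 CPM in total RNA and 17 and 20.8 CPM in footprints (log2 ratio -5.60 ± 0.21 (SE), adjusted p = 9e-08). Its relative Mcl1 had 362 against 1057 CPM (-1.55 ± 0.19). Both mRNAs were abundant with fewer footprints. Bcl2 is not a distinct gene, and with the coding share of its transcript, most of which is 3′ UTR, its log2 ratio was -3.19. In the Bcl2 family as a whole 4 of 12 genes were higher and 4 lower (33.3% each, near the 27.7% and 38.4% of all tested genes), and its median went from 0.19 to -0.95 over the 4 distinct genes.

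Genes with known brakes on translation were examined next. Of 16 tested stress genes with regulatory upstream reading frames, 5 were higher (31.3%) and 7 lower (43.8%), shares close to the 27.7% and 38.4% of all tested genes. Their median was -0.55, 0.24 below that of all genes, and 0.075 above it with the coding share; their log2 ratios ran from -5.28 to 4.40, and of 9 distinct genes 4 were higher and 3 lower. The genes described next are lower ones. Atf4, the transcription factor of the integrated stress response, had 79.5, 85, 116 and 88 CPM in total RNA and 38.2 and 32.4 CPM in footprints (log2 ratio -1.38 ± 0.23 (SE), adjusted p = 0.00052). Cebpg had 59.9, 50.6, 87.8 and 76.5 CPM in total RNA and 10 and 7.95 CPM in footprints (log2 ratio -2.92 ± 0.32 (SE), adjusted p = 3.9e-05), and Ddit3 (-2.91 ± 0.32) and Mdm2 (-3.99 ± 0.30) were lower too. With the coding share Cebpg was at -0.47 and not called. In each of these 4 genes the pools lay below every total RNA library, as they did at 4968 of all 11723 tested genes. The upstream start codons of Atf4 and Cebpg in the representative GENCODE M21 transcripts are the best known feature of the class and are shown with the ATG in capitals, in order from the 5′ end; the 5′ UTR of Atf4 holds 3 in 594 bases and that of Cebpg 1 in 294.
Atf4 upstream ATG 1: ttttctctcATGgggccttta
Atf4 upstream ATG 2: gcggccaccATGgcgtattag
Atf4 upstream ATG 3: gcctaagccATGgcgctcttc
Cebpg upstream ATG 1: cgcaggtacATGtgaagattt
The first and the second of Atf4 lie at chr15:80255294-80255314, plus strand and chr15:80255573-80255593, plus strand, and the other two windows span an exon junction, between positions 80255672 and 80256213 of chromosome 15 and between 35050917 and 35056380 of chromosome 7.

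Iron storage gives a second known brake. Both ferritin mRNAs carry an iron-responsive element, a 5′ hairpin to which iron regulatory proteins bind when iron is scarce. Fth1, the ferritin heavy chain, had 191, 384, 494 and 283 CPM in total RNA and 141 and 132 CPM in footprints (log2 ratio -1.31 ± 0.34 (SE), adjusted p = 0.0069), and Ftl1, the light chain, had 112, 157, 101 and 158 CPM in total RNA and 28.1 and 35.2 CPM in footprints (log2 ratio -2.07 ± 0.26 (SE), adjusted p = 9.8e-05). Fth1 was not called with the coding share (-0.79) or without pool 1B (-1.38) or 2B (-1.31). The pools lay below all total RNA libraries at both genes, although 96% of the coding stretches of Ftl1 and 26% of those of Fth1 recur in other genes. Aco1, one of the iron regulatory proteins, had 11.1, 5.53, 11.2 and 11.8 CPM in total RNA and 85.4 and 94.2 CPM in footprints (log2 ratio 3.19 ± 0.31 (SE), adjusted p = 1.7e-05), so that the regulator lay above and both targets below their mRNA. The stretch that both hairpins share, TGCTTCAACAGTGNTTGAACGGAAC, was found on the sense strand in the 5′ UTR of 3 of 11721 tested genes with a transcript, Fth1, Ftl1 and a copy of the latter. Its loop CAGTGN, in capitals below, occurs alone in 2705 of them (23.1%).
Fth1: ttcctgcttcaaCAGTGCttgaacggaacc
Ftl1: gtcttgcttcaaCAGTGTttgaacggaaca
They lie at chr19:9982732-9982761, plus strand (Fth1) and chr7:45459778-45459807, minus strand (Ftl1). In the list of iron storage and uptake 2 of 12 genes were higher (16.7%) and 6 lower (50%), beside 27.7% and 38.4% of all tested genes, but of its 7 distinct genes 2 were higher and 1 lower, with a median of 0.48 in place of -0.77. In that of polyamine synthesis 2 of 14 were higher (14.3%) and 6 lower (42.9%): Azin1, the antizyme inhibitor (3.28 against 37.5 CPM, -3.45 ± 0.60), and Odc1, the first enzyme of the pathway (13 against 60.9 CPM, -2.24 ± 0.28), were lower, and the antizyme gene Oaz1, whose reading needs a frameshift, was not called (log2 ratio 0.42 ± 0.21 (SE), adjusted p = 0.11).

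Across distinct genes the ratio followed the layout of the transcript. The median log2 ratio was 0.06 at 3377 genes with no ATG in the 5′ UTR, -0.36 at 1567 with 1, -0.60 at 760 with 2 and -0.99 at 1304 with 3 or more. In the first of these groups 32.6% of genes were higher and 32.1% lower, and in the last 15.8% and 47.2%. With the genes cut into 5 groups of equal size by 3′ UTR length, the median went from 0.40 for the shortest to -1.40 for the longest, and with 5 groups by 5′ UTR length from 0.10 to -0.86. Total RNA reads come from the whole transcript and footprints mainly from the coding sequence. When the total RNA value was multiplied by the coding share of the transcript, relative to its median, the groups by 3′ UTR length had medians of -0.17 and -0.40 at the ends. The order by upstream ATGs remained, from 0.10 with none to -0.78 with 3 or more. Groups by 5′ UTR length also still differed, from 0.007 for the shortest to -0.51 for the longest. Whether upstream ATGs and 5′ UTR length each have a part of their own was not tested. Coding GC content showed no such order, with medians from -0.36 to -0.23 over 5 groups. Within every group the quartiles spanned more than 2 log2 units, so that these features describe groups of genes and not single ones.

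**Figure D4:**
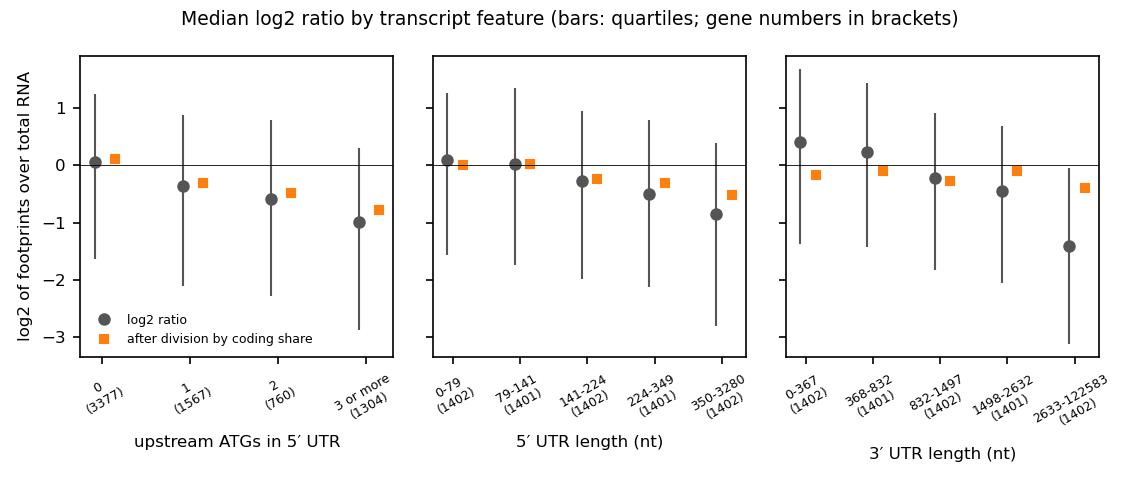
Median log2 ratio (circles, with quartiles) of distinct genes grouped by the number of ATGs in the 5′ UTR and, in 5 groups of equal size, by 5′ and 3′ UTR length, and the median after total RNA was multiplied by the coding share of the transcript (squares). The steps down with upstream ATGs and with 5′ UTR length are there for both, whereas that with 3′ UTR length is much flatter for the squares.

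The lowest end of the range was made of genes with mRNA and hardly a footprint. Of the 8038 tested genes whose mean in total RNA was 10 CPM or more, 229 had no footprint count in the WT pools, and 186 of these had none in the Anaef pools either. Of the 229, 115 (50.2%) were not distinct genes, against 40.1% of the others. Zfp488, a zinc finger gene, was the lowest of all, with 603, 513, 504 and 522 CPM in total RNA and 0 and 0 CPM in footprints, at least 1548-fold lower. The amino acid transporter gene Slc38a6 had 842, 819, 818 and 751 CPM in total RNA and 0 and 1.83 CPM in footprints, from 6 footprint counts, all in pool 2B. Noct, a circadian phosphatase first described as a deadenylase, had 976, 916, 886 and 839 CPM in total RNA and 13 and 16.8 CPM in footprints (log2 ratio -5.93 ± 0.21 (SE), adjusted p = 6.4e-08), and Eif4ebp2, an inhibitor of cap-dependent initiation, had 493, 485, 620.2 and 441 CPM in total RNA and 11 and 12.8 CPM in footprints (log2 ratio -5.43 ± 0.24 (SE), adjusted p = 2.1e-07; -2.37, still called, with the coding share). These 4 are distinct genes with between 441 and 976 CPM of RNA in each library and at most 16.8 CPM of footprints, and the part of the mask in this was not tested.

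Markers of some other cells also differed between the assays. Sums of marker lists are on the scale of all counts of a library unless the TMM scale is named. The 17 plasma cell markers include immunoglobulin constant regions. They summed to 1754 to 10221 CPM in total RNA and to 51266 and 16613 CPM in footprints. The 9 of them that were tested had summed means of 1739 against 405 CPM on the TMM scale. Of these 9, 4 were higher (44.4%), 2 lower (22.2%) and 3 not called, beside 27.7% and 38.4% of all tested genes. Their median log2 ratio was 2.49, and 0.23 over the 7 distinct genes. The 2 genes described next are higher ones. Jchain, which joins secreted antibodies, had 114, 199, 74.9 and 61.9 CPM in total RNA and 1916 and 991 CPM in footprints, and Mzb1, a plasma cell chaperone gene, 1.35, 6.91, 2.93 and 0.867 CPM in total RNA and 166 and 30.9 CPM in footprints. The 20 B cell markers summed to 897 to 1359 CPM and to 1321 and 642 CPM. On the scale of all counts their groups overlapped. So did those of erythroid markers, with 17 to 46.4 against 28.8 and 23.5 CPM. Stromal and endothelial markers also overlapped, with 125 to 186 against 156 and 179.5 CPM. For the B cell, erythroid and stromal and endothelial lists, the summed means of the tested markers on the TMM scale were lower in footprints. B cell markers had 490 against 579 CPM, erythroid markers 33.4 against 54.7 CPM and stromal and endothelial markers 213 against 313 CPM. On the scale of all counts, the 6 CD8 T cell markers summed to 22.6 to 28.7 CPM in total RNA. In footprints they summed to 117 and 168 CPM. Their summed means on the TMM scale were 181 against 51.9 CPM. Of these 6, 2 were higher (33.3%), 0 lower and 4 not called, with log2 ratios from -3.44 to 2.93. No marker of the B, plasma or CD8 T cell lists was at 0 in all WT libraries. On the scale of all counts, the 12 markers of the TCR complex with CD4 summed to 3636 to 4809 CPM in total RNA. In footprints these 12 summed to 11027 and 13629 CPM. The 9 of them that were tested had summed means of 7360 against 5866 CPM on the TMM scale, a much smaller gap. The part of other cells in the ratios of genes that T cells share with them was not tested.

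The ratio could be compared with 6 libraries that were not used for it, those of Anaef cells, processed in the same way. Over 11452 genes tested in both genotypes, Spearman's rho between the 2 sets of log2 ratios was 0.953. Of the 3211 genes higher in WT, 98.3% had the same sign in Anaef cells and 2379 were called higher there, which is 74.1% of the WT calls and 92.4% of the 2576 Anaef calls. Of the 4443 lower in WT, 99.6% had the same sign and 3756 were called lower, 84.5% of the WT calls and 91.8% of the 4092 Anaef calls. No gene was called in opposite directions. A difference of the ratio between genotypes was called at no gene: the interaction of genotype and assay over all 12 libraries called 0 of 12370 genes with edgeR (0%), with 557 at an unadjusted p under 0.05 and a smallest adjusted p of 0.18. DESeq2 called 4. Rasgrp1 had a log2 ratio of -2.29 in WT and -3.06 in Anaef cells, a difference of -0.72 ± 0.26 (SE) that did not pass (adjusted p = 1.0).

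**Figure D5:**
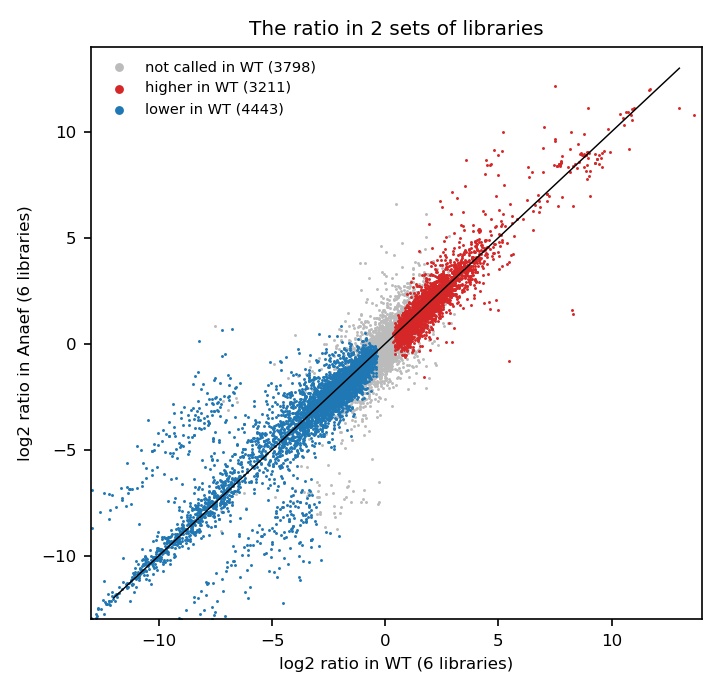
Log2 ratio of footprints over total RNA in Anaef cells (6 libraries) against that in WT cells (6 other libraries), 1 point per gene tested in both, coloured by the WT call, with the line of equal values. The points follow the line over the whole range (Spearman's rho = 0.953 over 11452 genes).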

How the data were processed

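The deposited values are the authors' counts of reads per gene, unscaled in both assays and masked for footprints; per the submitters' processing notes, TopHat 1.4.1, Bowtie and the build GRCm38 were used, while the sources used here name neither a counter, an annotation, a strand setting nor the mask. Rows were matched to GENCODE M21 (44595 of 45669), and genes annotated as protein-coding on nuclear chromosomes were kept; 263 rows that join several genes and 811 without a match were left out. The 6 WT libraries were fitted with edgeR 4.0.16 in R 4.3.3 (filterByExpr, TMM, quasi-likelihood F test, Benjamini-Hochberg adjustment over all tested genes), the Anaef libraries likewise, and the interaction over all 12. The fit was tested on simulated data. CPM use the TMM-scaled library size, except for Trac and the sums of cell type markers, which use all counts of a library.

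The genes, lists and tests were chosen with earlier results of these data known. Of the 104 genes named, 84 came from a rule (the 12 highest and 12 lowest called genes with a mean of at least 50 CPM, up to 3 called members at each end and the 2 most abundant of each list, and a fixed set), and the other 20 were chosen after their values were seen; a few genes that the rule gives are not reported here. Alternatives were RLE, upper-quartile and library-total scaling, TMM without ribosomal protein genes, DESeq2 1.42.0, limma-voom (limma 3.58.1), other count filters, the replicate block, a spread from 12 libraries, removal of a coding length trend and leaving out each library. Chosen after seeing the data were distinct genes only, a GC trend and the coding share, which was divided by its median over the tested genes. No source used here mentions molecular identifiers, and a floor of 3 counts covers counting error only.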

Additional observations from a re-analysis of the deposited data

Results flagged for a closer look

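In the 4 WT total RNA libraries, 9 of the 104 genes named above had a library far from the other 3 by Dixon's criterion, the gap to the nearest value as a share of the range; chance alone gives about 1 in 20. In 7 of the 9 it was the highest value and that of replicate 3, the shallowest library: Rasgrp1 with 1255 CPM (the others at 891 to 950.4), Eef1a1 with 7066, Acta2 with 5.21, Pfn1 with 1762, Atp5e with 27.4, Luc7l3 with 455 and Ube2d3 with 1206 CPM. Aco1 was lowest in replicate 2, with 5.53 CPM, and Egr1 highest in replicate 4, with 209 CPM. Without replicate 3, 3556 genes were higher and 4930 lower.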

How the results depend on the processing

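Over the 20 alternatives the counts of called genes stayed within 1.5 times those given, except in a fit of distinct genes, a smaller set. That separate fit gave 1885 higher and 2639 lower (1521 and 2343 with a log2 ratio of at least 1 in size). Among distinct genes the main fit called 1871 higher and 2641 lower. Leaving out each library gave 2321 to 3556 higher and 3504 to 4930 lower (2086 to 2743 and 3334 to 4250 for the larger ratios), and -2.41 to -1.54 percentage points for the ribosomal protein share. With the replicate block 3438 genes were higher and 4592 lower, but the numbers 1 and 1B do not pair the samples, since a pool holds 2 samples that the labels do not name. The interaction called 4 genes with DESeq2, and 0 to 1 when a footprint pool was left out (1 without Anaef 4B).

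Of 100 named genes called, 90 kept their call throughout and 8 lost it without a change of sign in at least 1 alternative (Cd3e, Fth1, Cebpg, Hist3h2a, Pfn1, Lat, Lef1 and Egr1). With the coding share Son also lost its call, with a change of sign, and Cd28 was called in the other direction. With the coding share, log2 ratios changed sign at Cd28 (0.55) and Eef1a1 (-0.48), both called, and at Cd3e (0.016), Il7r (0.30) and Son (-0.10), not called. With the coding length trend removed they did at Cd4 (0.17) and Il7r (0.37), with the GC trend removed at Cd4 (0.10), Cd3e (0.022) and Il7r (0.37), and with library totals at Eef1a1 (-0.20). Removing the length or GC trend moved the median of all genes from -0.30 to 0.12 or 0.11. Changes of sign or call with these trends removed thus include a shift of the zero. With the coding share, taken relative to its median, the median of all genes was -0.18, and signs near 0 depend on that choice. Of 39 list medians relative to all genes, 31 kept their sign. Beyond their spread, that of TOP class factors went from 0.51 to -0.00025, that of the stress genes from -0.24 to 0.075 and that of ubiquitin genes and E2 enzymes from -0.73 to 0.71 with the coding share; that of iron genes from -0.47 to 0.76 with distinct genes; and that of the Bcl2 family from 0.49 to -0.67 with distinct genes and -0.12 with a mean of at least 50 counts. Lists whose median lay within its spread in the main fit also changed sign. That of mTORC1 and nutrient sensing went from -0.12 to 0.57 with distinct genes and kept its sign in 13 of 20 alternatives. That of SR proteins, Tra2 and Clk kinases went from -0.11 to 0.17 without pool 2B. For large-subunit ribosomal proteins it went from -0.17 to 0.024 without pool 1B. The cause was not tested. The alternative without immunoglobulin and TCR genes was moot, since the tested rows hold none. With 2 pools per genotype, differences between footprint libraries are estimated from few values.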
